A study of Mus musculus with 8 samples.

Results

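Solute carriers are the large group of membrane proteins whose gene symbols begin with Slc, and 117 of them were followed across all 8 libraries of a mouse leukemia drug experiment. The 117 genes are the rows whose symbol has the form Slc, a family number, the letter a and a member number, and whose mean over the 8 libraries was at least 3 log2 CPM (counts scaled to a common library total, on a log2 scale). Slc29a1 was left out by name. The deposited table holds 12294 genes, and 180 of them carry such a symbol, so 62 further solute carrier rows lay below the level. The members were thus chosen by their mean level over all groups, so levels are given as a description. Slc40a1 (2.94) and Slc12a7 (2.99) lay just below the level, and Slc2a4rg-ps (3.00) and Slc66a1 (3.04) just above it. Every one of the 4 group means was at or above the level in 102 of the 117 members, and 15 members had at least 1 group mean below it.

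The cells were leukemic progenitors that the labels call I1DN, a name the labels do not spell out. They were sorted by flow cytometry as cKit+ and CD11b- cells from mice that had received transplants of I1DN leukemic cells, so all 4 groups share that leukemia and that gate. The mice were given vehicle (Veh), AG120 (ivosidenib, also written AG-120, which blocks the mutant form of the enzyme IDH1), AZA (azacitidine, a nucleoside analogue whose incorporation traps DNA methyltransferases) or the 2 together (AG120_AZA), with 5 days as the stated time. Each group had 2 libraries, made with a kit that reads the 3′ ends of transcripts. The labels describe sorting per mouse but do not say that each library is a separate mouse, and each p-value therefore reflects only how far these libraries spread, which may be technical. The age, strain and sex of the mice and the doses are not given in these labels.

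Solute carriers move ions, metals, sugars, amino acids, nucleosides, vitamins and organic acids across the plasma membrane or the membranes of organelles, mostly by facilitated diffusion or by coupling to an ion gradient. In blood-forming cells, iron carriers and mitochondrial carriers feed heme synthesis, the large neutral amino acid carrier supplies leucine to growing cells, and glucose and lactate carriers serve glycolysis. By family, the 117 members fell into 25 mitochondrial carriers, 21 carriers of amino acids and peptides, 20 of metals and heme, 14 of inorganic ions and pH, 8 of sugars, 6 of organic cations, anions and drugs, 5 of nucleotide sugars and acetyl-CoA, 4 of vitamins and choline, 4 of nucleosides and nucleobases, 3 of carboxylates and 3 of urea and other small solutes. The remaining 4 (Slc4a1ap, Slc9a3r1, Slc7a6os and Slc2a4rg-ps) are only named after a carrier and are not carriers themselves. Classes follow the family, so single members whose substrate differs from their family's may sit in the wrong class. All 3 measured carriers of lipids lay below the level.

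Several of the iron genes among these results carry an iron-responsive element, a short hairpin in an untranslated region to which iron regulatory proteins bind. In textbook terms, an element in the 5′ untranslated region lowers translation when iron is scarce, and elements in the 3′ untranslated region protect the transcript from decay. The GENCODE M21 transcripts (GRCm38) were searched for a C, 5 bases, the loop CAGTGN and 5 more bases, with at least 4 of the 5 stem bases able to pair. The matches in Slc11a2, the importer that rose most among the members, and in Slc40a1, the iron exporter just below the level, are printed with those of the other iron genes (for Tfrc 2 of its 4), with the loop in capitals. The search fixed the loop up to its last base, so every match shares those letters.
Slc11a2, 3′ untranslated region: cagagcCAGTGTgtttc
Slc40a1, 5′ untranslated region: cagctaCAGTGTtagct
Tfrc, 3′ untranslated region: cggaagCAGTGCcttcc
Tfrc, 3′ untranslated region: cggagaCAGTGAtctcc
Fth1, 5′ untranslated region: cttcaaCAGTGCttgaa
Ftl1, 5′ untranslated region: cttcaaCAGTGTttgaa
Alas2, 5′ untranslated region: cgtcctCAGTGCagggc
The Slc11a2 stem had 4 of 5 pairs and occurred in 1 annotated transcript, while the other stems shown had 5 of 5. A match of this form was found in an untranslated region of 1073 of 21877 protein-coding genes (4.90%), so a match alone is a description of the letters and no sign of a working element. The gene-level values do not separate the Slc11a2 transcript with the element from those without it.

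Depth and cell identity bear on all of the values. The deposited values had been brought to a common distribution, with sums of 999525 to 999562 CPM and the same maximum of 13.37 log2 CPM in every library, so library totals are lost and depth is unknown. Counting the distinct values above the lowest one in each library, which gives a lower bound on reads, the median member stood on 151 to 240 steps. The lowest was Slc20a2 in AG120_AZA replicate 2, at 4 steps. The log2 gap between the replicates of a group had a median of 0.39 over the members in vehicle, 0.30 under AG120, 0.31 under AZA and 0.40 under AG120_AZA. AG120_AZA replicate 2 held the lowest of the 8 values for 25 of the 117 members (21.4%) and the highest for 30. It also held the lowest value for 21.8% of all genes with a mean of at least 3, so this was not particular to the members. Kit, the marker of the gate, was present in every library and lay between 4.26 and 6.65 log2 CPM. Its levels were 6.31 and 6.59 in vehicle and 6.65 and 5.54 under AZA. They were 5.15 and 5.84 under AG120 and 4.51 and 4.26 under AG120_AZA. By limma, Kit changed with AG120 over both AZA levels by -1.33 ± 0.27 (adjusted p = 0.0162). In AG120_AZA the Kit difference was -2.06 against vehicle (adjusted p = 0.0148) and -1.71 against AZA (0.0393). For AG120 alone against vehicle it was -0.95 and did not pass. Itgam, which encodes CD11b, lay between 2.10 and 4.53 log2 CPM. Of the measured markers, 11 of 20 erythroid, 4 of 8 basophil and mast cell, 3 of 9 eosinophil and 1 of 3 dendritic cell genes were called higher with AG120 over both AZA levels. In the same fit 6 of 10 progenitor, 4 of 9 monocyte, 1 of 14 neutrophil and 1 of 11 megakaryocyte genes were called lower. Of all genes, 3.38% were called higher and 2.47% lower in that fit. No marker of B cells (1 measured) or T and NK cells (3 measured) was called. Summed T and NK markers ran from 585 to 773 CPM in vehicle and 673 to 1100 under AG120. They ran from 703 to 870 CPM under AZA and 616 to 702 under AG120_AZA. Summed erythroid markers ran from 1872 to 2776 CPM in vehicle, 984 to 2451 under AG120, 2193 to 5035 under AZA and 4695 to 4702 under AG120_AZA. Summed basophil and mast cell markers ran from 727 to 1385 CPM in vehicle, 1750 to 2695 under AG120, 1411 to 1480 under AZA and 2043 to 2796 under AG120_AZA. Summed neutrophil markers were at 8624 and 25131 CPM in the vehicle libraries and ran from 11482 to 19776 CPM under AG120, 21459 to 24098 under AZA and 3161 to 7253 under AG120_AZA. In such bulk samples, fewer cells of a type and less RNA per cell cannot be told apart, and the part of cell composition in each change given here was not tested.

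Most calls among the solute carriers came from the difference between the 4 libraries with AG120 and the 4 without it. Fitted over both AZA levels, 6 members rose (Slc11a2, Slc25a35, Slc19a1, Slc7a5, Slc41a3 and Slc25a1) and 2 fell (Slc25a45 and Slc39a6) by limma at an adjusted p below 0.05. That is 6.84% of the members, beside 5.85% of all genes tested (3.38% higher and 2.47% lower) and 6.77% of the genes at the same level or above. Unadjusted p was below 0.05 in 33 members, beside 22.9% of all genes. The median change was 0.05 on the log2 scale over the members and 0.01 over all genes, with 62 of 117 members above 0. The changes of the members were thus spread around 0, and the calls concern single carriers. The ranges of the 4 libraries with AG120 and the 4 without did not overlap in 8 members that were higher and 8 that were lower, 6.84% each, beside 8.0% and 5.99% of all genes. The number of calls depended on single libraries: it was 1 without AG120 replicate 1, 3 without AG120_AZA replicate 1 and 5 without AZA replicate 1. Without the mean-variance trend in the fit 1 call was left, that of Slc11a2.

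**Figure D1:**
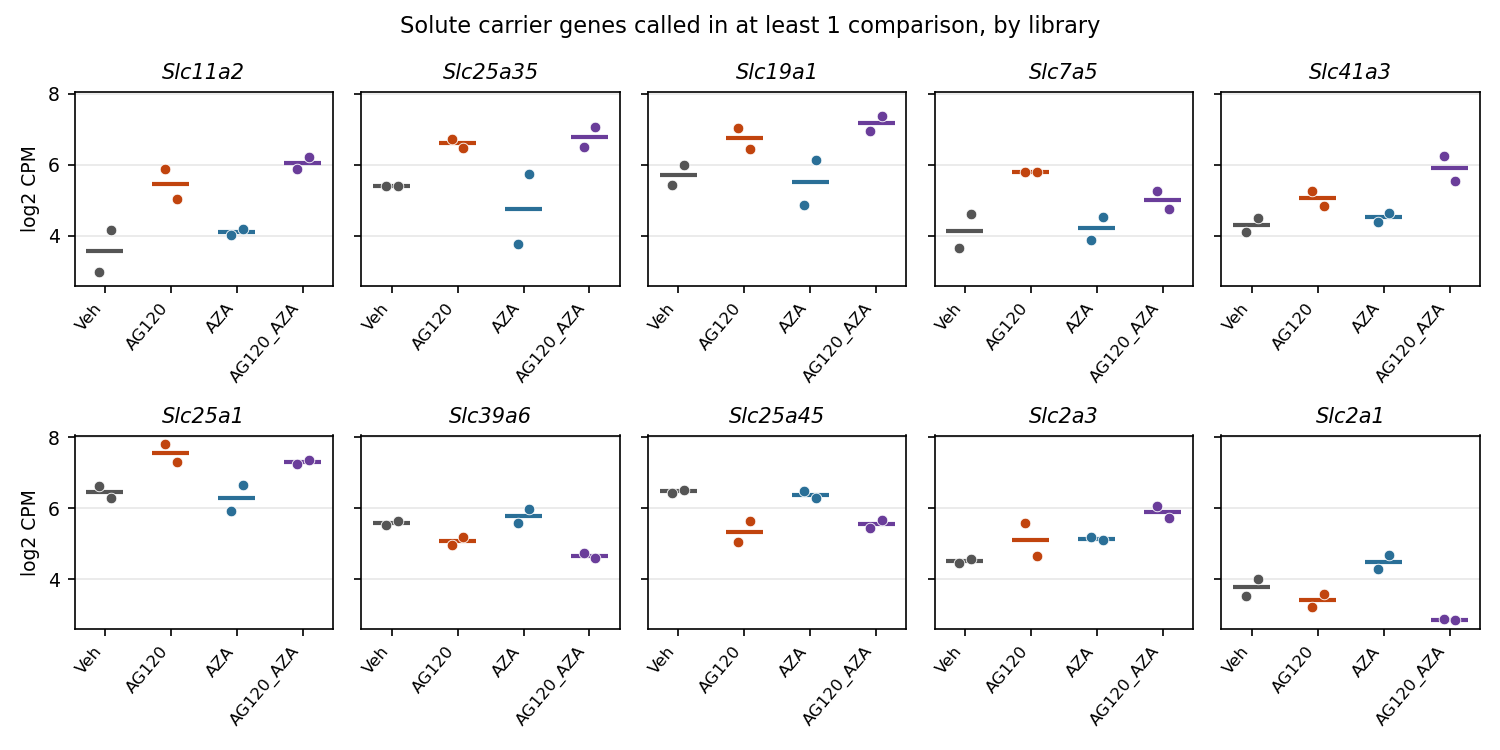
Log2 CPM (vertical axis) of the 10 members called in at least 1 comparison, by treatment group, with 1 point per library and a bar at the mean of the 2 libraries. For Slc11a2 the 4 libraries with AG120 lie between 5.03 and 6.21 and the 4 without it between 2.97 and 4.19.

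Promoter letters from RefSeq's table (GRCm38.p6) are printed for 4 of the 8 members called over both AZA levels, which moved with the same drug. No window was at hand for the others, Slc11a2, Slc25a35, Slc7a5 and Slc39a6. The windows run from 250 bases before to 50 after the start, on the gene's strand, 5′ to 3′. The start is RefSeq's, and for Slc41a3 and Slc19a1 it lies inside the GENCODE span given with each gene, downstream of that span's 5′ end, so these windows are at internal starts and do not show the letters before the first annotated start. Capitals mark CACGTG (E-box), GGGCGG (GC box) and CCAAT, each on either strand.
Slc25a1, chr16:17928170-17928469, minus strand: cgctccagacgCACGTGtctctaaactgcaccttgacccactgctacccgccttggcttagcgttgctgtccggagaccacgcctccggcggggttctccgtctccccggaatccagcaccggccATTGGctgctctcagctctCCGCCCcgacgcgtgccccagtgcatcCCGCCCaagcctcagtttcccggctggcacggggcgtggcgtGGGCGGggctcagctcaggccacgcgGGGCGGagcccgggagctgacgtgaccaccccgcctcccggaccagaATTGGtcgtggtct
Slc19a1, chr10:77032489-77032788, plus strand: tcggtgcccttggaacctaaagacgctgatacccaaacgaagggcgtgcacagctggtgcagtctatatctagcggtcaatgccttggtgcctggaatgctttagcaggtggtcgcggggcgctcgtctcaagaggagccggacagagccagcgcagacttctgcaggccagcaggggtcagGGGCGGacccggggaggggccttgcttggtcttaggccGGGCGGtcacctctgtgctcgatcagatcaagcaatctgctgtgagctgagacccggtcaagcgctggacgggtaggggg
Slc41a3, chr6:90618996-90619295, plus strand: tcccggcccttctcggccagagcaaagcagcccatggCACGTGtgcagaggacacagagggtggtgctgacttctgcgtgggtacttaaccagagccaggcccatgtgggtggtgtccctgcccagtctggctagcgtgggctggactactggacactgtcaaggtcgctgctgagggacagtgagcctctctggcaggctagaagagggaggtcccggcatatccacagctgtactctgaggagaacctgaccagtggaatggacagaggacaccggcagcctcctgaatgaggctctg
Slc25a45, chr19:5877572-5877871, plus strand: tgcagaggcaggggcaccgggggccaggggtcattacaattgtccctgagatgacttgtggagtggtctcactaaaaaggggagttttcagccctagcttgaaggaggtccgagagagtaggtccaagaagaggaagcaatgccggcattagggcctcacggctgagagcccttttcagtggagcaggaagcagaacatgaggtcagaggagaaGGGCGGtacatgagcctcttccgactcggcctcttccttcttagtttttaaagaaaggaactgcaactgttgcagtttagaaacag
Slc25a1 held 1 E-box, 4 GC boxes and 2 CCAAT boxes, Slc19a1 in this first of its windows 2 GC boxes, Slc41a3 1 E-box and Slc25a45, which fell, 1 GC box. The table had windows for 86 of the 117 members, 112 windows in all. CACGTG was in 13.4% of them and in 7.15% of all 32851 windows of that length. GGGCGG was in 69.6% and 35.7%, and CCAAT in 41.1% and 37.4%. For 3 other words searched, the shares were 20.5% and 8.86% (CCGGAAG), 2.68% and 0.895% (TGATGCAA) and 2.68% and 1.79% (TGACGTCA). AGATAA, of the kind that erythroid zinc-finger factors bind, was in 8.04% and 11.2%. The members were chosen by their level while all windows include genes of any level, so the 2 shares come from unlike sets. These are matches of letters and not sites.

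Metal carriers held both the largest rise and one of the falls. Slc11a2 encodes DMT1, the proton-coupled importer that brings ferrous iron into the cell and out of endosomes, and its gene lies at chr15:100387898-100425072 on the minus strand (GRCm38). It was at 2.97 and 4.15 log2 CPM in vehicle, 5.87 and 5.03 under AG120, 4.02 and 4.19 under AZA and 5.89 and 6.21 under AG120_AZA. Every library with AG120 was above every library without it, and vehicle replicate 1 was the lowest. With AG120 over both AZA levels, Slc11a2 rose by 1.92 ± 0.28 log2 units (SE), which is 3.78-fold (adjusted p = 0.00283). This call held in all 8 omissions of a library, with changes of 1.69 to 2.16. Against vehicle the combination raised it by 2.49 ± 0.41 (5.61-fold, adjusted p = 0.00974), a call lost without AG120_AZA replicate 2 (2.33, adjusted p = 0.108) or without the trend (0.0968). Against AZA alone the combination raised it by 1.95 ± 0.41 (adjusted p = 0.0367). That call was lost without AZA replicate 1 (adjusted p = 0.250), AZA replicate 2 (0.100) or AG120_AZA replicate 2 (0.260), with the replicate block (0.0534) and without the trend (0.163). For AG120 alone against vehicle the difference was 1.89 ± 0.41 and did not pass (adjusted p = 0.0822).

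Slc41a3 belongs to a family of magnesium transporters and lies at chr6:90604725-90646412. Its levels were 4.09 and 4.51 log2 CPM in vehicle, 5.27 and 4.84 under AG120, 4.40 and 4.64 under AZA and 6.25 and 5.55 under AG120_AZA. The combination libraries were the highest, and libraries with and without AG120 did not overlap. Over both AZA levels it rose with AG120 by 1.07 ± 0.24 (adjusted p = 0.0235), a call lost without AG120 replicate 1 (adjusted p = 0.0911), AZA replicate 1 (0.0816), AZA replicate 2 (0.0561) or AG120_AZA replicate 1 (0.0757). Between the combination and vehicle it rose by 1.60 ± 0.32 (adjusted p = 0.0266), a call that ended without vehicle replicate 1 (adjusted p = 0.110), AG120_AZA replicate 1 (0.0777) or AG120_AZA replicate 2 (0.0618). It also ended with only the groups compared (0.0588) and without the trend (0.121).

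Slc39a6 encodes the zinc importer ZIP6. It was at 5.52 and 5.64 log2 CPM in vehicle, 4.97 and 5.20 under AG120, 5.57 and 5.99 under AZA and 4.74 and 4.59 under AG120_AZA. The libraries with AG120 were all below those without it, and the combination was lowest. It fell with AG120 by 0.80 ± 0.20 on the log2 scale (adjusted p = 0.0371). The call held in 2 of 8 omissions and ended without AG120 replicate 1 (adjusted p = 0.110), vehicle replicate 2 (0.0671), AZA replicate 1 (0.0886), AZA replicate 2 (0.0843), AG120_AZA replicate 1 (0.0938) or AG120_AZA replicate 2 (0.0890).

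The other 17 carriers of metals and heme did not pass in any comparison. Slc39a11, a ZIP-family zinc carrier, was at 8.11 and 8.39 log2 CPM in vehicle, 7.16 and 7.56 under AG120, 7.47 and 7.47 under AZA and 7.12 and 7.67 under AG120_AZA. Both vehicle libraries were above the other 6. Its differences from vehicle were -0.89 in AG120, -0.78 in AZA and -0.85 in the combination, with adjusted p = 0.143, 1 and 0.0784. Slc48a1, which carries heme out of endosomes and lysosomes, stood between 8.50 and 9.04 log2 CPM. Its 4 libraries with AG120 were above the other 4 by a narrow margin, and the change was 0.23 ± 0.13 (adjusted p = 0.338). Slc30a1, the zinc exporter of the plasma membrane, had a change of 0.39 ± 0.31 with AG120, and Slc39a10, a zinc importer, 0.23 ± 0.28. Slc39a1, another zinc importer, named after its values were seen, stood between 7.17 and 7.43 log2 CPM in the 8 libraries. Over the 20 members of the class the median change with AG120 was 0.14, with 11 above 0.

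The iron exporter ferroportin, Slc40a1, lay just under the level. Its libraries held 1.10 and 0.24 log2 CPM in vehicle, 3.84 and 3.23 under AG120, 2.22 and 3.62 under AZA and 4.47 and 4.76 under AG120_AZA. Vehicle was lowest, the combination highest, and AZA replicate 2 lay among the AG120 libraries. It rose with AG120 by 2.28 ± 0.42 over both AZA levels (adjusted p = 0.00965), a call lost without AG120 replicate 1 (2.04, adjusted p = 0.0534) or without the trend (0.0540). In the combination against vehicle it rose by 3.95 ± 0.56 (adjusted p = 0.00478), lost without AG120_AZA replicate 2 (3.80, adjusted p = 0.0681) or without the trend (0.0579). Slc39a14, which also carries iron, had a mean of -0.15 log2 CPM, too low for a statement.

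The other genes of iron uptake, storage and heme synthesis were counted from a list of 20 that were all measured. With AG120 over both AZA levels 7 rose and none fell, beside 3.38% of all genes called higher and 2.47% called lower. The median change of the list was 0.26. Cpox, an enzyme late in heme synthesis, rose by 2.04 ± 0.23 (adjusted p = 0.000938), and Alad, an early enzyme of the same pathway, by 1.92 ± 0.22 (adjusted p = 0.00101). Tfrc, the transferrin receptor through which iron enters the endosome that holds DMT1, rose by 0.84 ± 0.16 (adjusted p = 0.0108). Fth1, a ferritin chain, had a change of 0.28 ± 0.18 and did not pass. Alas2, the erythroid enzyme that begins heme synthesis, had -1.03 ± 0.50 and did not pass (adjusted p = 0.249). In the combination against vehicle 6 of the 20 rose and none fell, beside 1.63% of all genes called higher and 1.38% called lower. Of the metallothioneins and their zinc sensor, Mt2 rose by 3.83 ± 0.28 (adjusted p = 7.43e-05) and Mt1 by 1.09 ± 0.20 (adjusted p = 0.00936), while the sensor Mtf1 had -0.09 ± 0.16. Many erythroid markers rose in the same fit, and their part in the iron genes' changes was not tested.

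Mitochondrial carriers of the Slc25 family were the largest class. With AG120 over both AZA levels 2 of the 25 rose and 1 fell, beside 3.38% and 2.47% of all genes. The median change of the class was 0.05, with 14 above 0. Slc25a1 encodes the citrate carrier, which exports citrate to the cytosol for fatty acid and sterol synthesis. It lies at chr16:17925223-17928219 on the minus strand. Its levels were 6.62 and 6.28 log2 CPM in vehicle, 7.80 and 7.31 under AG120, 5.92 and 6.65 under AZA and 7.23 and 7.37 under AG120_AZA. All libraries with AG120 were above those without it. It rose by 1.06 ± 0.19, or 2.08-fold (adjusted p = 0.00934), and the call was lost in 1 of 8 omissions, that of AG120 replicate 1 (0.95, adjusted p = 0.0525).

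Slc25a35 is a mitochondrial carrier related to those of oxaloacetate and sulfate, at chr11:68968131-68974365. It was at 5.41 and 5.41 log2 CPM in vehicle, 6.72 and 6.48 under AG120, 3.77 and 5.73 under AZA and 6.51 and 7.06 under AG120_AZA. The groups with AG120 were higher without overlap, and the AZA replicates lay farther apart than those of any other member in that group. It rose by 1.61 ± 0.35, or 3.06-fold (adjusted p = 0.0219), a call lost without AG120 replicate 1 (adjusted p = 0.0698), AG120_AZA replicate 1 (0.0605) or AG120_AZA replicate 2 (0.0618). An exon of the gene overlaps one of Rangrf on the opposite strand, and no source used here says whether counting used the strand, so reads from both genes cannot be told apart there.

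Slc25a45 is a mitochondrial carrier of the same family, at chr19:5877808-5885878. It was at 6.43 and 6.52 log2 CPM in vehicle, 5.04 and 5.65 under AG120, 6.48 and 6.29 under AZA and 5.44 and 5.67 under AG120_AZA. The 4 libraries with AG120 were below the 4 without it. It fell by 0.98 ± 0.18 on the log2 scale (adjusted p = 0.0100), a call lost without AG120 replicate 1 (-0.83, adjusted p = 0.0507).

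The carriers that serve heme synthesis in mitochondria did not pass. Slc25a37, mitoferrin 1, the iron importer of developing red cells, was at 5.79 and 6.23 log2 CPM in vehicle, 5.50 and 5.83 under AG120, 6.18 and 6.12 under AZA and 5.53 and 5.92 under AG120_AZA. The groups overlapped, and its change with AG120 was -0.39 ± 0.18 (adjusted p = 0.216). Slc25a28, mitoferrin 2, had -0.03 ± 0.30. Slc25a38, which carries glycine for the first step of heme synthesis, was at 4.70 and 4.22 log2 CPM in vehicle, 5.47 and 4.97 under AG120, 4.79 and 5.23 under AZA and 5.40 and 5.25 under AG120_AZA. Vehicle was lowest, but AZA replicate 2 lay above one AG120 library, and the change of 0.54 ± 0.22 did not pass (adjusted p = 0.169). Slc25a39, which brings glutathione into mitochondria, had 0.08 ± 0.17. So Slc11a2 and Tfrc rose while the mitochondrial iron and glycine carriers gave no call.

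Among carriers of other mitochondrial substrates, Slc25a10, the dicarboxylate carrier, had 0.81 ± 0.31 with AG120 (adjusted p = 0.153), and Slc25a20, the carnitine-acylcarnitine carrier, 0.66 ± 0.32 (adjusted p = 0.248). Slc25a11, the carrier of 2-oxoglutarate in exchange for malate, had -0.09 ± 0.15. Its substrate is what mutant IDH1 converts to 2-hydroxyglutarate, and its transcript stood between 6.88 and 7.52 log2 CPM in the 8 libraries. The phosphate carrier Slc25a3 stood between 8.88 and 9.19 log2 CPM. Slc25a5, an ADP/ATP carrier, was at 9.21 log2 CPM or more in 7 libraries and at 7.78 in AG120_AZA replicate 2, so its combination mean rests on replicates that disagree. Slc25a22, a glutamate carrier singled out after its values were seen, showed the same library low, at 3.89 log2 CPM beside 5.92 in AG120_AZA replicate 1.

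Folate and the other vitamins, with choline, form a small class of 4 members. With AG120, 3 of the 4 had an unadjusted p below 0.05 by limma, 2 higher and 1 lower, beside 22.9% of all genes. Slc19a1, the reduced folate carrier, was the one that passed. It lies at chr10:77032241-77061002. Its libraries held 5.43 and 5.98 log2 CPM in vehicle, 7.03 and 6.45 under AG120, 4.88 and 6.13 under AZA and 6.95 and 7.37 under AG120_AZA. Libraries with AG120 lay above the rest without overlap. It rose by 1.34 ± 0.28, or 2.54-fold (adjusted p = 0.0168), a call lost without AG120 replicate 1 (adjusted p = 0.0727) or AG120_AZA replicate 1 (0.0509). Slc44a2, a choline transporter-like protein named here after its values were seen, was lower in all libraries with AG120 and did not pass (-0.54 ± 0.15, adjusted p = 0.0525).

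Of the 21 carriers of amino acids and peptides 1 rose with AG120, beside 3.38% of all genes called higher, and the class median was -0.07. Slc7a5 encodes LAT1, the exchanger that brings leucine and other large neutral amino acids into the cell, at chr8:121881150-121907694. It was at 3.65 and 4.61 log2 CPM in vehicle, 5.81 and 5.81 under AG120, 3.89 and 4.53 under AZA and 5.26 and 4.76 under AG120_AZA. AG120 alone was highest, the combination lay between, and libraries with and without AG120 did not overlap. Over both AZA levels it rose by 1.24 ± 0.28, or 2.37-fold (adjusted p = 0.0265). The call was lost without AG120 replicate 1 (adjusted p = 0.108), AG120 replicate 2 (0.0564), AZA replicate 1 (0.0795) or AG120_AZA replicate 1 (0.0740). The AG120 difference was 1.68 ± 0.37 without AZA and 0.81 ± 0.37 with it, and neither passed alone (adjusted p = 0.0848 and 0.263).

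Slc3a2 encodes CD98, the heavy chain that LAT1 needs. It held 8.45 and 8.53 log2 CPM in vehicle, 8.77 and 8.37 under AG120, 8.60 and 8.69 under AZA and 8.88 and 8.72 under AG120_AZA. The groups overlapped, and its change was 0.12 ± 0.13 (adjusted p = 0.644). Slc1a5, the glutamine carrier ASCT2, stood at 5.98 to 6.49 log2 CPM, with a change of -0.07 ± 0.17. The glutamine carriers Slc38a1 and Slc38a2 had -0.40 ± 0.25 and -0.31 ± 0.17, and Slc7a1, the arginine and lysine carrier, 0.42 ± 0.26. Slc43a1, another carrier of large neutral amino acids, had 0.29 ± 0.36. None of these passed. Slc7a8 encodes LAT2, another light chain that pairs with the same heavy chain, and its values differed in order from those of LAT1. They were 5.43 and 5.54 log2 CPM in vehicle, 6.26 and 5.83 under AG120, 6.47 and 5.75 under AZA and 5.21 and 4.23 under AG120_AZA. Each drug alone was above vehicle and the combination below it, but the interaction of -1.95 ± 0.50 did not pass (adjusted p = 0.794). Of 13 measured genes of the amino acid stress response, 1 rose with AG120 (Ddit3, by 0.83 ± 0.18, adjusted p = 0.0207) and none fell. The shares of all genes called in that fit were 3.38% higher and 2.47% lower. Atf4, the transcription factor of that response, had 0.27 ± 0.16.

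One amino acid carrier below the level had the largest fitted change of any solute carrier called in this fit. Slc38a5, a carrier of glutamine and other neutral amino acids known from red cell precursors, is named after its values were seen. It was at -0.34 and -1.49 log2 CPM in vehicle, 3.37 and 2.70 under AG120, -0.37 and -1.90 under AZA and 3.58 and 4.72 under AG120_AZA. All 4 libraries without AG120 lay near the bottom of the scale, so the size of the change is uncertain. Over both AZA levels the change was 4.62 ± 0.60 (adjusted p = 0.00154), and it was called in all 8 omissions of a library. With 1 CPM added before the logarithm the change was 3.11. Slc15a3, a lysosomal peptide and histidine carrier also below the level and likewise named after its values were seen, was at 1.97 and 0.08 log2 CPM in vehicle, 0.15 and 0.01 under AG120, 1.73 and 2.71 under AZA and -2.65 and -3.43 under AG120_AZA. It fell in the combination against AZA by 5.26 ± 1.10 (adjusted p = 0.0353), from low values in all groups, and the AG120_AZA libraries stood on 2 and 0 steps, so the size of this change is uncertain too. With 1 CPM added it was -2.34 (adjusted p = 0.0433). The call was lost without AZA replicate 1 (adjusted p = 0.182), AZA replicate 2 (0.139), AG120_AZA replicate 2 (0.182), AG120 replicate 1 (0.0501) or AG120 replicate 2 (0.0503). It was also lost without the trend (0.0546), with vooma weights (0.147), with the replicate block (0.0534) and with only the groups compared (0.0718).

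Of the 8 sugar carriers 1 rose in the combination against vehicle, beside 1.63% of all genes called higher. Another fell in the combination against AZA, beside 1.20% of all genes called lower. Slc2a3 (chr6:122727809-122801640) encodes GLUT3, a high-affinity glucose transporter, and Slc2a1 (chr4:119108711-119137983) encodes GLUT1, the widespread form. Slc2a3 was at 4.45 and 4.56 log2 CPM in vehicle, 5.58 and 4.65 under AG120, 5.18 and 5.11 under AZA and 6.06 and 5.73 under AG120_AZA. Vehicle was lowest and the combination highest, with the single drugs between. The combination was above vehicle by 1.39 ± 0.32, or 2.62-fold (adjusted p = 0.0447), and Slc2a3 was 1 of the 3 members called in that comparison. The call held in 2 of 8 omissions, and ended without vehicle replicate 1 (adjusted p = 0.135), vehicle replicate 2 (0.112), AZA replicate 1 (0.0635), AZA replicate 2 (0.0654), AG120_AZA replicate 1 (0.104) or AG120_AZA replicate 2 (0.162). It also ended with only the groups compared (0.0566), with only genes of mean 5 or more (0.0595) and without the trend (0.157).

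Slc2a1 held 3.54 and 4.01 log2 CPM in vehicle, 3.21 and 3.60 under AG120, 4.30 and 4.68 under AZA and 2.87 and 2.85 under AG120_AZA. AZA alone was highest and the combination lowest, with no overlap between those groups. It fell in the combination against AZA by 1.63 ± 0.37 (adjusted p = 0.0492). The call held in 2 of 8 omissions, those of the vehicle libraries. It was lost without AG120 replicate 1 (adjusted p = 0.0702), AG120 replicate 2 (0.0708), AZA replicate 1 (0.199), AZA replicate 2 (0.154), AG120_AZA replicate 1 (0.0727) or AG120_AZA replicate 2 (0.232). It was also lost with the replicate block (0.0559), with vooma weights (0.0568), with only the groups compared (0.0700) and without the trend (0.0982). In the same comparison 6 of 14 neutrophil markers were called lower, beside 1.20% of all genes. The median change of these 14 markers was -3.11, and their part in the Slc2a1 and Slc15a3 values was not tested. Over both AZA levels the changes with AG120 were -1.0 ± 0.31 for Slc2a1 and 0.68 ± 0.22 for Slc2a3, and neither passed (adjusted p = 0.0809 and 0.0900). Of 15 genes of glucose use, 1 fell with AG120 and none rose, beside 2.47% of all genes called lower and 3.38% called higher. It was Pkm, a pyruvate kinase, which fell by 0.93 ± 0.18 on the log2 scale (adjusted p = 0.0142).

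Carriers of lactate and pyruvate gave no call. Slc16a1, the monocarboxylate carrier MCT1, was at 4.28 and 4.31 log2 CPM in vehicle, 5.50 and 5.45 under AG120, 4.70 and 4.38 under AZA and 5.13 and 4.73 under AG120_AZA. All 4 libraries with AG120 were above the 4 without, the closest pair being AG120_AZA replicate 2 and AZA replicate 1. The change of 0.79 ± 0.22 missed the threshold (adjusted p = 0.0589). Slc16a3, the lactate exporter MCT4, had 0.32 ± 0.28. Of the chaperones of these carriers, Emb, embigin, fell with AG120 by 1.82 ± 0.34 (adjusted p = 0.0111), and Bsg, basigin, had 0.63 ± 0.19 and did not pass (adjusted p = 0.0649). Of the 18 measured ancillary chains and carriers of other families, 1 rose with AG120 (Mfsd2b, by 1.35 ± 0.22, adjusted p = 0.00511) and 1 fell (Emb). Among 17 measured ABC transporters, the ATP-driven pumps, 2 rose and none fell: Abcb4 by 3.04 ± 0.28 (adjusted p = 0.000314) and Abcb6 by 2.14 ± 0.32 (adjusted p = 0.00353). Of all genes, 3.38% were called higher and 2.47% lower in the same fit.

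**Figure D2:**
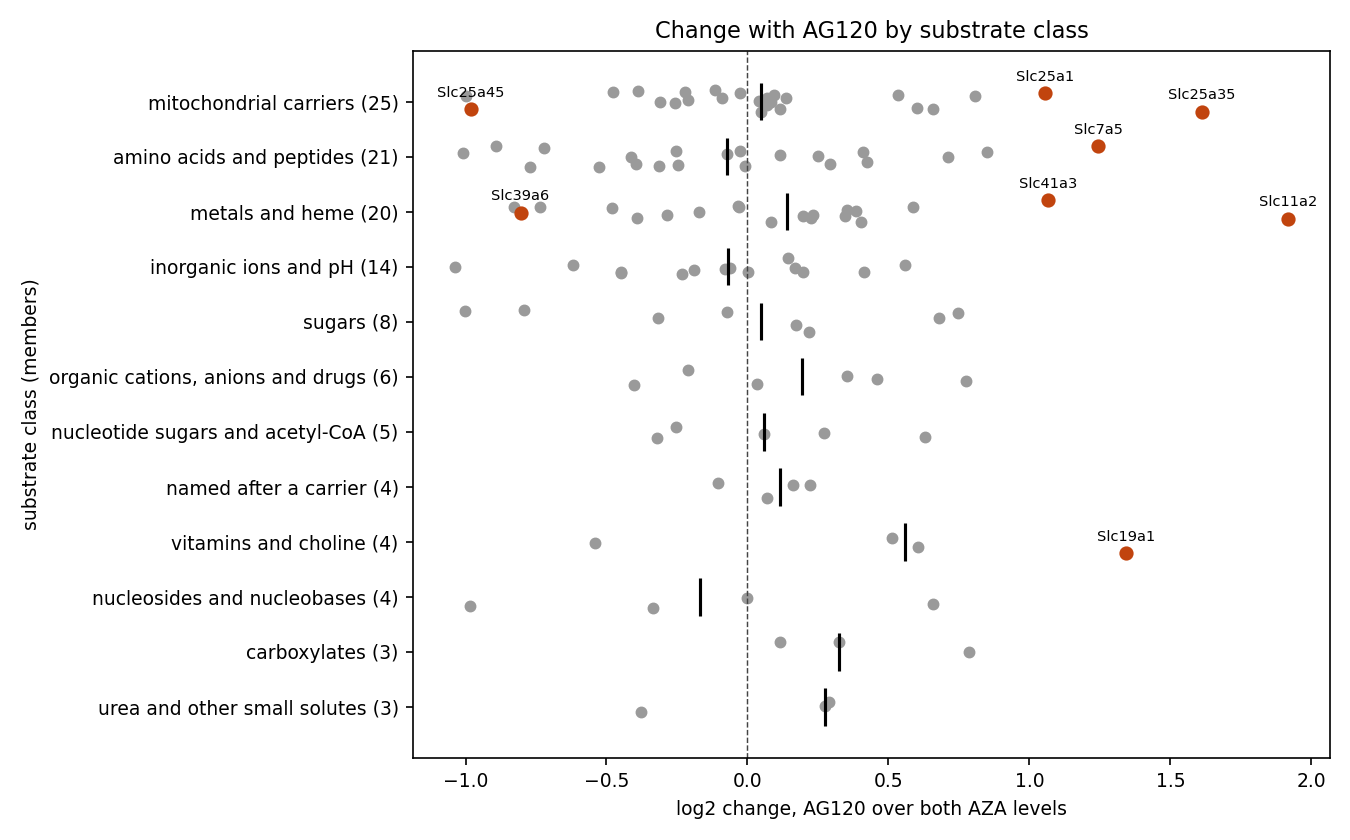
Log2 change with AG120 over both AZA levels (horizontal axis) of each of the 117 members, in rows by substrate class with the number of members in brackets; a black bar marks the class median and orange points the 8 called members. Most points lie between -1 and 1, and the called members come from 4 classes.

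Nucleoside carriers matter for azacitidine because it is a cytidine analogue that needs such proteins to enter cells. None of the 4 members of that class passed in any comparison. Slc28a2, a sodium-coupled nucleoside carrier, was at 3.01 and 4.11 log2 CPM in vehicle, 2.80 and 4.80 under AG120, 3.84 and 3.76 under AZA and 2.32 and 0.85 under AG120_AZA. The combination libraries were the lowest, but the replicates of vehicle, of AG120 and of the combination differed by more than 1. Its difference between the combination and AG120 was -2.21 ± 0.69 (adjusted p = 0.384). Slc29a2, the equilibrative carrier ENT2, had 0.66 ± 0.28 with AG120 and -0.20 ± 0.28 with AZA. Slc29a3, the lysosomal carrier ENT3, was lower in all libraries with AG120, by -0.34 ± 0.18 (adjusted p = 0.277). Slc43a3, a nucleobase carrier, had 0.00 ± 0.21 with AG120 and 0.23 ± 0.21 with AZA.

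Carriers of organic cations and anions also gave no call. Slc6a4, the serotonin transporter, which platelets and their precursors express, was at 3.99 and 3.04 log2 CPM in vehicle, 3.58 and 2.86 under AG120, 3.42 and 4.29 under AZA and 5.04 and 5.10 under AG120_AZA. Both combination libraries were above the other 6. It was 1.85 ± 0.45 higher than in AG120 alone (adjusted p = 0.384) and 1.55 ± 0.45 higher than in vehicle (adjusted p = 0.0841). Summed megakaryocyte markers, at 3923 to 4251 CPM in the combination, were likewise highest there, beside 2579 to 2784 in vehicle, 605 to 1567 under AG120 and 2363 to 2910 under AZA, and their part in the Slc6a4 values was not tested. Slc18a2, the vesicular monoamine carrier of mast cells and basophils, held 6.43 and 5.09 log2 CPM in vehicle, 6.93 and 5.92 under AG120, 5.57 and 5.66 under AZA and 6.98 and 6.02 under AG120_AZA. The groups overlapped, and the change with AG120 was 0.77 ± 0.32 (adjusted p = 0.171). Slc22a3, an organic cation carrier, had 0.03 ± 0.22.

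Among the 14 carriers of inorganic ions none passed. Slc4a8, a sodium-dependent bicarbonate exchanger, was at 6.13 and 6.38 log2 CPM in vehicle, 6.94 and 7.37 under AG120, 6.58 and 6.96 under AZA and 6.39 and 6.14 under AG120_AZA. Both single drugs were above vehicle and the combination was level with it. The interaction of -1.40 ± 0.34 had the smallest unadjusted p of the members in that test and did not pass (adjusted p = 0.794). Slc20a2, a sodium-phosphate carrier, was at 0.08 log2 CPM in AG120_AZA replicate 2 and at 2.79 or more in the other 7 libraries, the widest gap between replicates of any member in that group (3.05). Its relative Slc20a1 had 0.49 ± 0.16 with AZA and -0.08 ± 0.16 with AG120. Slc4a1, the anion exchanger that marks mature red cells, had a mean of -0.02 log2 CPM and was not a member. Slc14a1, the urea carrier of red cells, was at 5.61 and 5.63 log2 CPM in vehicle, 6.27 and 5.14 under AG120, 5.65 and 6.10 under AZA and 6.57 and 6.12 under AG120_AZA, and its change with AG120 was 0.28 ± 0.25. In the last carrier class, Slc35a2, which brings UDP-galactose into the Golgi, had 0.63 ± 0.34 with AG120.

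**Figure D3:**
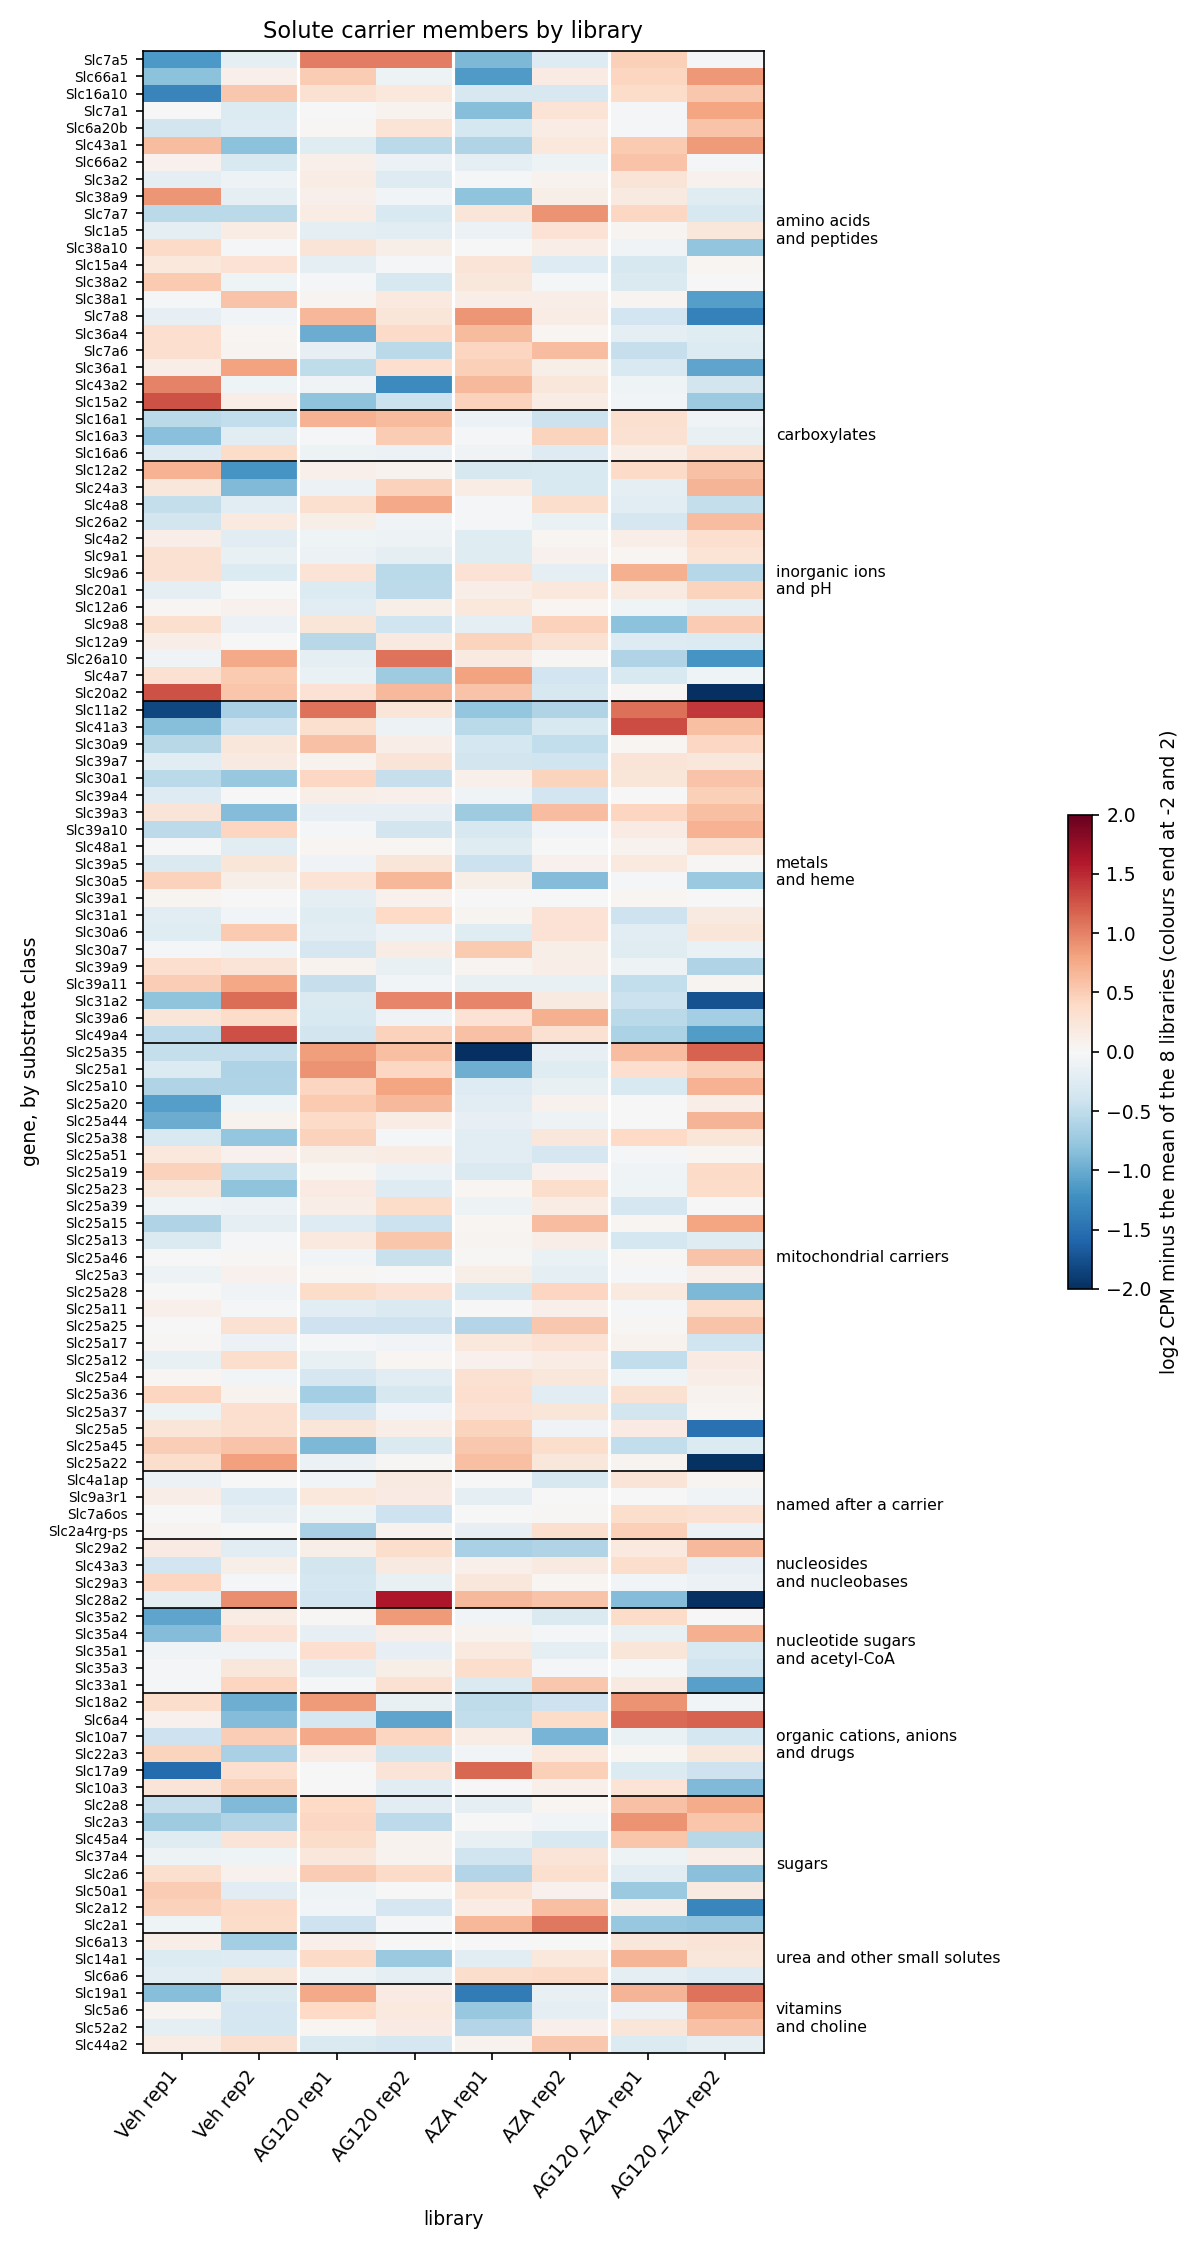
Log2 CPM of each of the 117 members in each of the 8 libraries (columns) minus the member's mean over the 8, ordered by substrate class, on a colour scale that ends at -2 and 2. Members differ in pattern within every class, and AG120_AZA replicate 2 has several of the strongest blue cells, among them Slc20a2, Slc25a22 and Slc28a2.

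The single contrasts gave fewer calls than the fit over both AZA levels. For AG120 against vehicle no member passed by limma, while 0.578% of all genes did (0.358% higher), and 17 of 117 members had an unadjusted p below 0.05 beside 13.1% of all genes. The closest were Slc11a2, Slc7a5 and Slc25a45, the last with -1.13 ± 0.26 (adjusted p = 0.0877). Without vehicle replicate 2, 2 members passed. For AG120_AZA against vehicle 3 of 117 members rose (Slc11a2, Slc41a3 and Slc2a3) and none fell, beside 3.02% of all genes called in either direction and 1.63% called higher, and 28 had an unadjusted p below 0.05 beside 21.4%. That count was 0 without AG120_AZA replicate 2 and 7 without AG120_AZA replicate 1, of which 6 were falls. Of the markers, 10 of 20 erythroid, 4 of 8 basophil and mast cell, 1 of 9 eosinophil and 1 of 3 dendritic cell genes were called higher in this comparison, and 5 of 10 progenitor, 4 of 9 monocyte and 1 of 14 neutrophil genes lower. For AG120_AZA against AZA 1 member rose (Slc11a2) and 1 fell (Slc2a1), beside 2.26% of all genes (1.06% higher and 1.20% lower). Unadjusted p was below 0.05 in 22 members beside 19.6% of all genes. That count was 0 without AZA replicate 1 or AG120_AZA replicate 2, 1 without either AG120 library and 6 without AG120_AZA replicate 1. Here 7 of 20 erythroid, 3 of 8 basophil and mast cell and 1 of 3 dendritic cell markers were called higher, and 6 of 14 neutrophil, 4 of 10 progenitor and 1 of 9 monocyte markers lower. Without the trend no member passed in either comparison with the combination.

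The AG120 difference could be compared with and without AZA in separate libraries, since AG120 against vehicle and AG120_AZA against AZA share no sample. No member was called in both settings, as none passed for AG120 against vehicle. The difference had the same sign in both settings for 80 of 117 members (68.4%), 45 up and 35 down, beside 5597 of the 8478 genes at the same level or above. The share of the members was close to that of those genes, so the agreement was not particular to the solute carriers. Across the members Pearson's r was 0.51 and Spearman's rho 0.51, beside 0.53 and 0.46 over those genes; genes of 1 library are not independent replicates. All 8 members called over both AZA levels had the same sign in both settings, which the call itself favours. Slc25a35, Slc19a1 and Slc41a3 had the larger difference with AZA (2.04, 1.66 and 1.38) than without (1.19, 1.03 and 0.76), and Slc7a5 the larger without. None of these interactions passed.

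**Figure D4:**
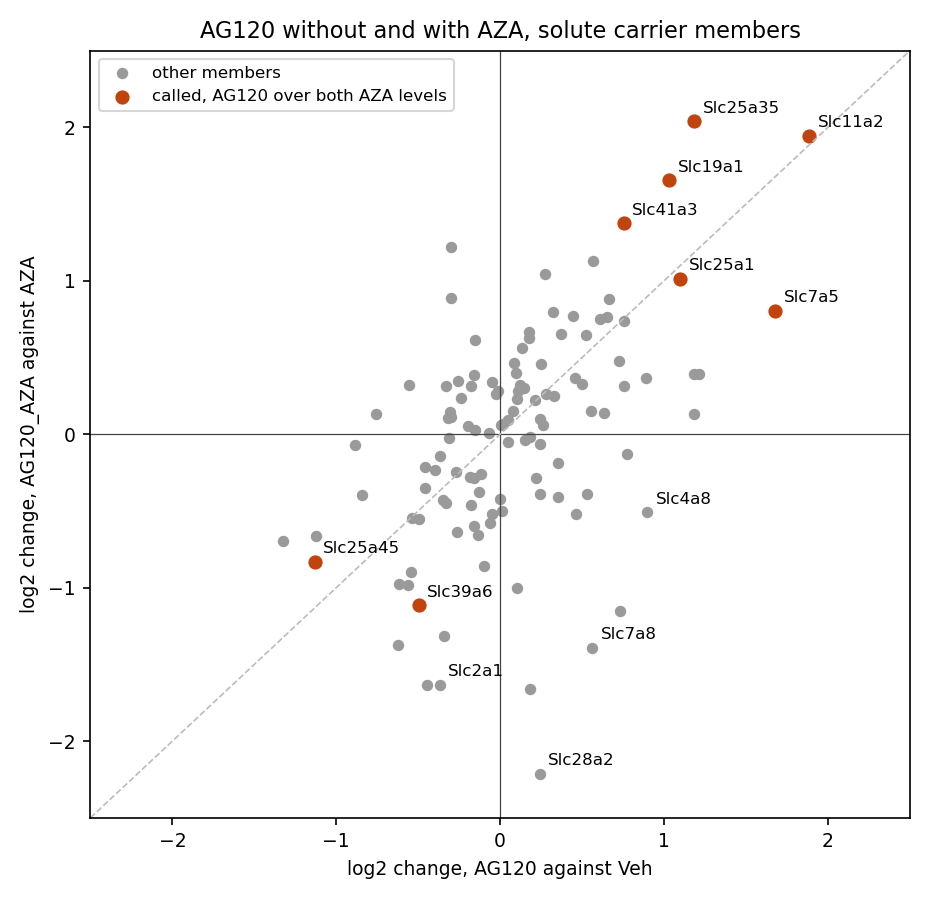
Log2 change of each member in AG120 against vehicle (horizontal axis) and in AG120_AZA against AZA (vertical axis), with the dashed line at equal change and orange points for the 8 members called over both AZA levels. Slc11a2 lies near the line at 1.89 and 1.95, while Slc4a8, Slc7a8 and Slc28a2 lie above 0 on one axis and below 0 on the other.

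AZA moved no solute carrier past the threshold. In AZA against vehicle, in AG120_AZA against AG120 and over both AG120 levels, 0 of 117 members and 0 of all 12294 genes were called by limma. Unadjusted p was below 0.05 in 4, 13 and 9 members, beside 3.51%, 10.1% and 6.19% of all genes. The smallest p values for AZA against vehicle belonged to Slc39a11, Slc17a9 (the vesicular nucleotide carrier, 1.41 ± 0.53) and Slc7a7 (a light chain for cationic amino acids, 1.11 ± 0.46), each with an adjusted p of 1. Over both AG120 levels they belonged to Slc2a3 (0.71 ± 0.22), Slc20a1 and Slc6a4 (1.09 ± 0.38), each with an adjusted p of 0.771. In AG120_AZA against AG120 the count was 4, all falls, without AG120_AZA replicate 1. The libraries with and without AZA did not overlap in 2 members that were higher and 1 that was lower, beside 1.11% and 0.944% of all genes. Between the AZA differences without and with AG120, which share no sample, the sign was the same in 53 of 117 members (45.3%), beside 50.8% of the genes at the same level or above. For the interaction of the drugs, again 0 members and 0 genes were called, and 7 members had an unadjusted p below 0.05, beside 6.22% of all genes.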

How the data were processed

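Gene expression was measured by QuantSeq 3′ sequencing in 8 libraries of sorted I1DN progenitors, 2 per group. The submitters' processing notes name edgeR 3.28.1, limma 3.42.2, R 3.6.2, HISAT2 2.1.0, Subread 1.6.3 with featureCounts, cutadapt 1.14 and bcl2fastq 2.17.1.14, and the mm10 build; the annotation, strand setting and filters are not given in the sources used here. The values deposited by the authors are log2 CPM, brought to a common distribution, and were taken unchanged and unfiltered.

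All 12294 genes were fitted with limma 3.58.1 under R 4.3.3, using lmFit and trended eBayes. Group means gave the contrasts and the interaction (4 residual and 7.06 prior degrees of freedom), and an additive model of both drugs gave the differences over both levels of the other drug (5 and 6.85). Two-sided p-values received Benjamini-Hochberg adjustment over all genes, with a call at 0.05. Errors are moderated standard errors. The fit was tested on simulated data. Depth is unknown, so precision rests on the replicates.

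The members, gene lists, marker lists and tests were chosen with earlier results of these data known. Named are members called in a comparison (or the 3 smallest p where fewer than 3 were called), the widest-ranging member of each class, 35 members of 42 fixed names, and the rows beside the level threshold. Slc39a14, Slc4a1 and Slc15a3 are fixed names that were not members. Slc15a3 and, outside the fixed names, Slc25a22, Slc38a5, Slc39a1 and Slc44a2 are marked as named after their values were seen. Symbols were matched to GENCODE M21 on GRCm38, the mm10 assembly (114 of 117 members). The last 500 bases of 8 members overlap an exon of another gene. Alternatives were no trend, vooma weights, log2(CPM + 1), genes with a mean of at least 5, the replicate block, only the groups compared, and each library left out in turn. Bisulfite data, which the series design also mentions, were not analysed here.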

Additional observations from a re-analysis of the deposited data

How the results depend on the processing

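Leaving out 1 library at a time gave 0 to 2 called members for AG120 against vehicle, 0 to 7 for AG120_AZA against vehicle, 0 to 4 for AG120_AZA against AG120, 0 to 6 for AG120_AZA against AZA, and 1 to 12 for AG120 over both AZA levels. AZA against vehicle, AZA over both AG120 levels and the interaction gave 0 in every omission. Without the mean-variance trend the counts were 0 for AG120_AZA against vehicle (3 with it), 0 against AZA (2 with it) and 1, Slc11a2, for AG120 over both AZA levels (8 with it). With only genes of mean 5 or more, where 54 members and not Slc11a2, Slc41a3 or Slc2a1 remain, the combination gave 0 against vehicle and 0 against AZA. Both members called against AZA, Slc11a2 and Slc2a1, were outside that setting, so it could not test their calls. Against AZA it gave 4 with vooma weights, 6 on the log2(CPM + 1) scale, and 1 with only the groups compared. Against vehicle that last setting gave 3, of which 1, Slc11a2, was also called in the fit of all groups. With the replicate block the combination gave 1 against AZA, a member not called without the block. The block moved no other count of calls by over 1.5 times. Deviations of same-numbered libraries correlated from -0.11 to 0.19 between groups. With 2 libraries per group this cannot decide whether the replicate numbers pair the libraries. No fitted change of a solute carrier with adjusted p below 0.1 reversed its sign under any of these alternatives. These changes were picked by p in the same libraries, so a reversal was unlikely from the start and its absence shows little. Of their alternative values, 79 lost a call and 37 gained one. The causes were not tested. With 2 libraries per group, a change near the spread between replicates could not be called.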
